A study of Rattus norvegicus with 25 samples.

Results

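Long intergenic non-coding RNAs (lincRNAs) are transcripts, often spliced and polyadenylated, that are made from their own genes between protein-coding genes and carry no long reading frame. In the testis many of them are transcribed while germ cells differentiate. A mature spermatozoon makes almost no new RNA, so what it carries was left from spermatogenesis or was taken up in the epididymis, and a small RNA library sees a long transcript only as short fragments of it. The 141 lincRNA transcripts described here are those of the rat small ncRNA count matrix that carried the biotype lincRNA and a raw count of at least 10 in at least 5 of the 25 sperm libraries, with rows of identical counts taken as 1 transcript. The matrix lists 1921 lincRNA rows in all, so 7.34% of them are described, and they were chosen by their raw counts with no use of group labels. The rule still depends on depth and level. 10 of the transcripts reached 10 counts only in libraries of abstinent males, which were deeper, and 4 only in those of nonabstinent males. The choice is thus not independent of the timepoints compared below.

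Mature sperm came from the cauda epididymis of male Sprague-Dawley rats (F0) after a double swim-up, which selects motile cells. F0_MOR males had self-administered morphine, an opioid, through an intravenous catheter and F0_SAL males had self-administered saline, and sperm of both groups (n = 7 libraries each) was collected when self-administration ended. F0_ABS-MOR (n = 6) and F0_ABS-SAL males (n = 5) had the same morphine or saline exposure and then 90 days of abstinence before collection. The sources used here give no age, and the abstinent males were older at collection by the abstinence period, so that abstinence, age and anything else that differed between the collections cannot be told apart. Columns of the matrix carry the prefixes REG and TO and a letter for each library; these prefixes were read as nonabstinent and abstinent because the 4 group sizes fit no other assignment, and nothing in the columns names an animal.

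The libraries held 1540914 to 6489784 ncRNA counts and the abstinent ones were deeper, with medians of 5483348 (F0_ABS-SAL) and 4159614.5 (F0_ABS-MOR) against 3064414 (F0_SAL) and 2719189 (F0_MOR). Their composition differed by timepoint. Fragments of snRNA, the RNA of the spliceosome, took 5.02 to 19.4% of the counts in nonabstinent and 30.4 to 54.9% in abstinent libraries, and mitochondrial rRNA took 51.0 to 87.0% and 34.5 to 59.5%. All 5 sperm marker miRNAs of the miR-34 and miR-449 families were detected, and their summed level was lower at the abstinent timepoint in median, at 346479 to 574372 RPM (miRNA reads scaled to 1 common total per library) in nonabstinent libraries (medians 487368 in F0_SAL and 444426 in F0_MOR) and 220525 to 465249 RPM in abstinent libraries (medians 388606 in F0_ABS-SAL and 394274 in F0_ABS-MOR). The markers of other cell types were not absent: of 6 leukocyte miRNAs all 6 were detected, summing to 896 to 2285 RPM in nonabstinent and 2090 to 3578 RPM in abstinent libraries, and the 7 epithelial miRNAs (5690 to 11923 against 8891 to 21185 RPM), the 6 muscle miRNAs (10659 to 16317 against 18074 to 83763 RPM) and the 2 endothelial miRNAs (442 to 743 against 825 to 3421 RPM) likewise had higher medians in both abstinent groups than in both nonabstinent groups. The 3 erythroid miRNAs in the matrix of 4 listed summed to 706 to 2167 RPM in nonabstinent and 389 to 1557 RPM in abstinent libraries.

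The deposited tables identify each lincRNA by its Ensembl transcript and gene and pair neither with a gene symbol, so transcripts are given here by identifier. No matching symbol, coordinate or sequence was used. Normalized counts are raw counts divided by the library size as scaled by TMM (trimmed mean of M-values), at one common library size. Transcript lengths were not used, so that counts compare libraries for 1 transcript, while a higher count of one transcript than of another is not a higher level per length. Because the material is bulk RNA, fewer cells that carry a transcript and less of it per cell cannot be told apart.

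lincRNA fragments were a small part of these libraries. The 141 transcripts held 0.0935 to 0.276% of the ncRNA counts in F0_SAL libraries (mean 0.186% ± 0.0678 SD, n = 7) and 0.136 to 0.323% in F0_MOR libraries (0.242% ± 0.0818, n = 7). After abstinence the share was 0.162 to 0.299% (0.220% ± 0.0599, n = 5) in F0_ABS-SAL and 0.154 to 0.408% (0.263% ± 0.0876, n = 6) in F0_ABS-MOR libraries. The 4 groups overlapped. The share was lowest in the F0_SAL library of greatest depth and highest in an F0_ABS-MOR library. The order depended on the denominator. With mitochondrial rRNA left out of the total, the share became 0.769% ± 0.152 in F0_SAL and 0.783% ± 0.172 in F0_MOR against 0.431% ± 0.0994 in F0_ABS-SAL and 0.534% ± 0.115 in F0_ABS-MOR libraries.

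**Figure D1:**
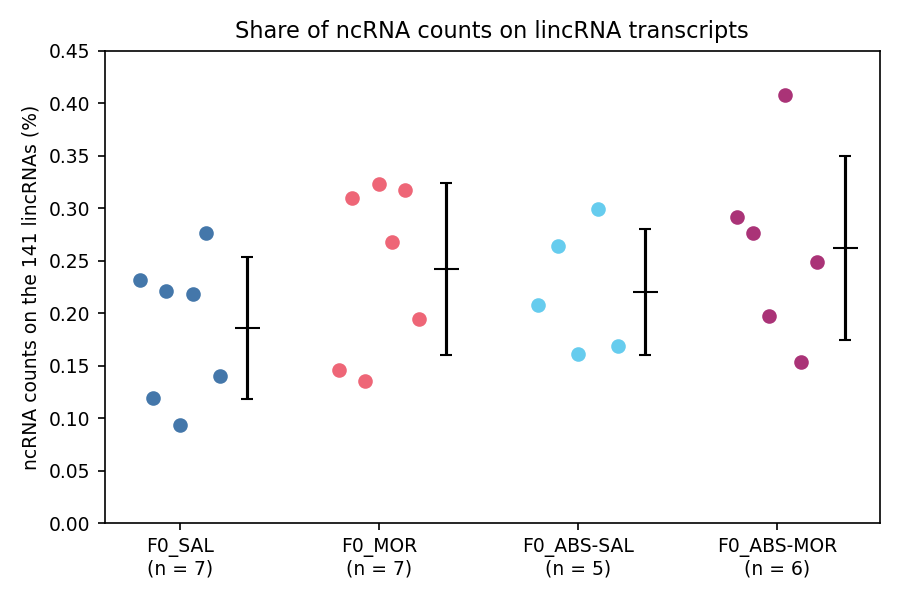
Percentage of all ncRNA counts that fell on the 141 lincRNA transcripts, 1 point per library and 1 column per group, with the group mean and SD as a black bar. The groups overlap, from 0.0935% in an F0_SAL library to 0.408% in an F0_ABS-MOR library.

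Most of the 141 transcripts were thinly covered and a few held most of the reads. 1 transcript held 28% of all lincRNA counts, the first 10 held 63.5% and the first 20 held 77.4%. Over the 25 libraries 17 transcripts averaged more than 100 normalized counts and 79 more than 10. A count above 0 was found for 71 transcripts in all 25 libraries, and the transcript seen in the fewest was found in 13. Only 25 transcripts reached 10 raw counts in every library. A library held 117 to 140 of the 141 transcripts, with medians of 129 (F0_SAL), 128 (F0_MOR), 137 (F0_ABS-SAL) and 134.5 (F0_ABS-MOR). After every library was thinned to 1540914 ncRNA counts, the depth of the shallowest, these medians became 112, 116, 112 and 117, so that the higher number of transcripts seen at the abstinent timepoint was not present at equal depth. A transcript counted as held after thinning from 2 reads on, which is the smallest count above 0 in the matrix.

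The transcript with the most reads was ENSRNOT00000087930.1 (gene ENSRNOG00000055963.1), which was found in every library and had the most reads of the 141 in each of the 4 groups. It held 1255 to 2185 normalized counts in F0_SAL libraries (median 1548), 1323 to 2789 in F0_MOR libraries (median 1554) and 1609 to 4225 in F0_ABS-MOR libraries (median 3278). The F0_ABS-SAL libraries held 1867, 1909, 2687, 2790.2 and 3089. Abstinent libraries lay toward the upper end, and both timepoints overlapped in both treatments. ENSRNOT00000081056.1 (gene ENSRNOG00000059168.1) followed with group means of 531 ± 161 (F0_SAL), 665 ± 237 (F0_MOR), 971 ± 224 (F0_ABS-SAL) and 1053 ± 416 (F0_ABS-MOR; mean ± SD, n as above). It too was higher on average in abstinent libraries, and its groups overlapped.

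The other 8 of the 10 most-read transcripts averaged 155 to 325 normalized counts. In descending order they were ENSRNOT00000087719.1 (ENSRNOG00000055862.1), ENSRNOT00000080877.1 (ENSRNOG00000058787.1), ENSRNOT00000078024.1 (ENSRNOG00000053017.1), ENSRNOT00000085823.1 (ENSRNOG00000051982.1), ENSRNOT00000082261.1 (ENSRNOG00000055355.1), ENSRNOT00000080552.1 (ENSRNOG00000060804.1), ENSRNOT00000081777.1 (ENSRNOG00000059081.1) and ENSRNOT00000085881.1 (ENSRNOG00000055838.1). From the fourth to the eighth the means ran from 302 to 257, and neighbours in this order did not differ beyond their spread between libraries. These 10 were each found at 10 or more counts in all 25 libraries. Most of them were steady between libraries of 1 group, with a median SD of 0.52 on the log2 CPM scale (counts relative to library size) once group means were removed, against 0.83 over all 141 transcripts. ENSRNOT00000082261.1 stood apart among them, with an SD of 0.88 and medians of 64.2 (F0_SAL) and 118 (F0_MOR) against 537 (F0_ABS-SAL) and 389 (F0_ABS-MOR).

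**Figure D2:**
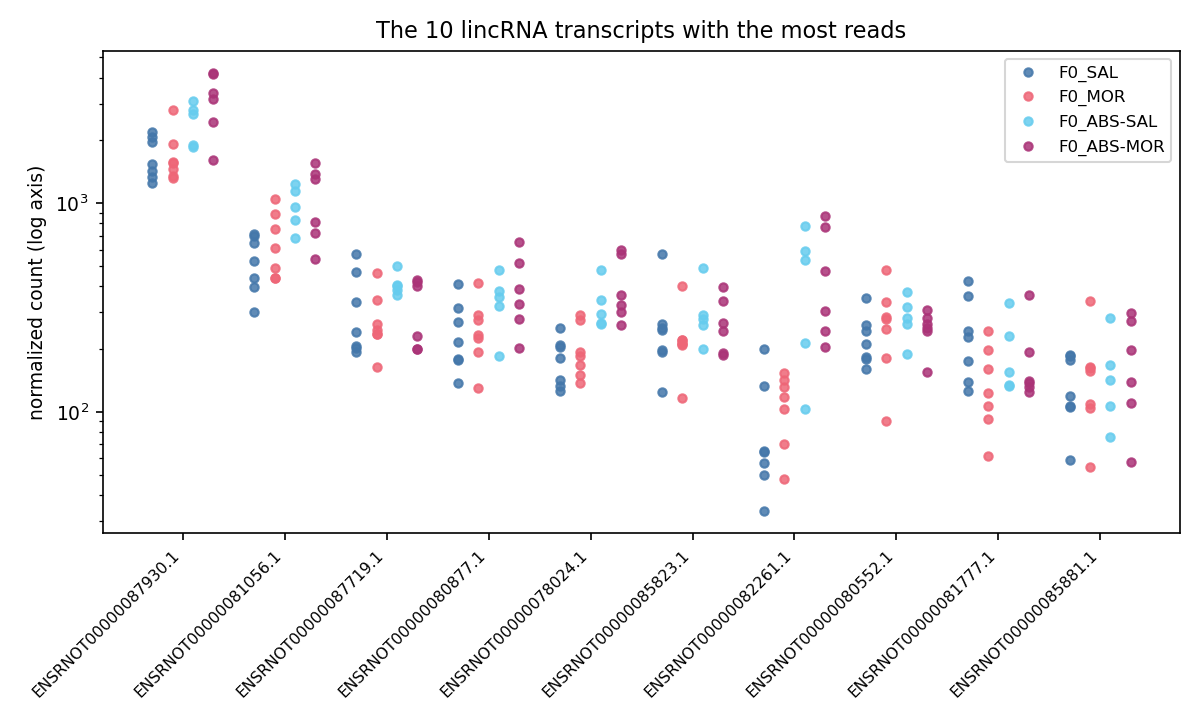
Normalized counts (log axis) of the 10 lincRNA transcripts with the most reads, 1 point per library, coloured by group, in descending order of their mean. ENSRNOT00000087930.1 lies above the other 9 in group median, and ENSRNOT00000082261.1 shows the widest separation between nonabstinent and abstinent libraries.

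The transcripts that varied most between libraries of the same group were not among the most-read. ENSRNOT00000079820.1 (ENSRNOG00000056268.1) had the largest SD, 1.77 on the log2 CPM scale, and ranged over 2.08 to 193 normalized counts in F0_SAL libraries (median 6.82) and 0 to 106 in F0_MOR libraries (median 5.42). 1 F0_SAL and 1 F0_MOR library held 189 and 204 of its 619 raw counts, and its groups overlapped. ENSRNOT00000081059.1 (ENSRNOG00000055691.1, SD 1.22) reached 74.3 normalized counts in 1 F0_ABS-MOR library and was at 0 in another. ENSRNOT00000080050.1 (ENSRNOG00000051687.1, SD 1.19) was the transcript seen in only 13 libraries.

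Several of the 141 rows had the same or nearly the same counts as another row. Whether they share reads was not tested, and their values are uncertain to that extent. 2 rows were removed because their counts equalled those of a kept row in every library, ENSRNOT00000088976.1 (kept as ENSRNOT00000078205.1, gene ENSRNOG00000060280.1) and ENSRNOT00000083718.1 (kept as ENSRNOT00000079208.1, gene ENSRNOG00000058862.1). In each case both rows were transcripts of 1 gene. 4 further genes had a pair of transcripts among the 141, ENSRNOT00000086889.1 and ENSRNOT00000087589.1 of ENSRNOG00000055850.1 with 1607 and 1548 raw counts in all, ENSRNOT00000084961.1 and ENSRNOT00000091112.1 of ENSRNOG00000057022.1 with 216 and 205, ENSRNOT00000081199.1 and ENSRNOT00000089862.1 of ENSRNOG00000058398.1 with 269 and 270, and ENSRNOT00000080614.1 and ENSRNOT00000081665.1 of ENSRNOG00000059731.1 with 333 and 341. No kept row had the counts of a row of another biotype.

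Rows of different genes also moved as one. Across the 25 libraries, with group means removed, the 7260 pairs of transcripts that passed the filter on low counts had Pearson correlations with a median of 0.04, from -0.73 to 0.998, and 15 pairs involving 24 transcripts reached 0.9. The strongest was ENSRNOT00000080614.1 with ENSRNOT00000081779.1 of another gene, ENSRNOG00000060317.1, whose raw counts were equal in 23 of 25 libraries. ENSRNOT00000079649.1 (ENSRNOG00000054861.1), ENSRNOT00000088103.1 (ENSRNOG00000060197.1) and ENSRNOT00000082261.1, of 3 genes, correlated at 0.95 to 0.99, and ENSRNOT00000080877.1 correlated at 0.97 with ENSRNOT00000083711.1 (ENSRNOG00000054812.1). Such rows are not independent observations, and all these correlations share library depth and scaling between their points. For the 5 most-read transcripts the row of another biotype that followed them most closely was an rRNA row for 3 (ENSRNOT00000087930.1 with ENSRNOT00000077643.1, r = 0.54; ENSRNOT00000080877.1 with ENSRNOT00000079689.1, r = 0.71; ENSRNOT00000078024.1 with ENSRNOT00000069393.1, r = 0.62) and a misc_RNA row for the other two (ENSRNOT00000081056.1 with ENSRNOT00000089687.1, r = 0.55; ENSRNOT00000087719.1 with ENSRNOT00000079577.1, r = 0.65). Each was looser than the same transcript's closest lincRNA, at 0.67 to 0.97. ENSRNOT00000081777.1 (ninth by reads), named after its values were seen, followed the snoRNA row ENSRNOT00000083185.1 at r = 0.85, closer than any lincRNA (0.73).

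The first question of the design was whether morphine self-administration altered sperm lincRNA fragments, and whether any difference was present after abstinence. No lincRNA transcript was differentially expressed in F0_MOR vs F0_SAL (0 of 121 tested, beside 0% of all 482 ncRNA rows tested) or in F0_ABS-MOR vs F0_ABS-SAL (0 of 121, beside 0%), by edgeR's quasi-likelihood test. A transcript counted as differentially expressed when its adjusted p was below 0.1 and it changed by more than 0.58 on the log2 scale. DESeq2 called 0 of the 141 in both comparisons, beside 0.0263% of the 3804 rows (1 snoRNA row, lower in F0_MOR) in the nonabstinent and 0% in the abstinent comparison. With only the 2 nonabstinent groups in the model 0 of 66 lincRNA transcripts were called, beside 5.96% of 319 rows (18 snRNA rows higher and 1 snoRNA row lower in F0_MOR). At an unadjusted p under 0.05 stood 7 lincRNA transcripts (of 25 rows in all) in the nonabstinent and 1 (of 1) in the abstinent comparison. The median log2 fold change of the lincRNAs was -0.08 against -0.07 over all rows in the nonabstinent comparison, and 0.03 against 0.03 in the abstinent comparison. No transcript separated the treatment groups without overlap at either timepoint, which 0% of all rows did.

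The transcript with the smallest p in F0_MOR vs F0_SAL was ENSRNOT00000087128.1 (ENSRNOG00000056576.1). It held 14.1 to 43.9 normalized counts in F0_SAL libraries (median 27.9) and 4.51 to 24.6 in F0_MOR libraries (median 9.86). The F0_MOR libraries were mostly the lower, and the groups overlapped. The log2 fold change was -1.24 ± 0.43 (SE), which did not pass (adjusted p = 0.671, edgeR). At the abstinent timepoint its values were 6.02, 18.3, 21.9, 25.6 and 40.2 in F0_ABS-SAL and 15.5 to 38.8 (median 21.7) in F0_ABS-MOR libraries, a log2 fold change of 0.04 ± 0.47 (adjusted p = 0.992).

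In F0_ABS-MOR vs F0_ABS-SAL the smallest p belonged to ENSRNOT00000077355.1 (ENSRNOG00000057000.1), with 7.49, 14, 20.6, 25 and 41.3 normalized counts in F0_ABS-SAL and 5.91 to 17.3 in F0_ABS-MOR libraries (median 10.5). The groups overlapped, and the log2 fold change of -1.02 ± 0.49 did not pass (adjusted p = 0.992). In nonabstinent males the values were 6.50 to 22.9 in F0_SAL (median 12.6) and 11.4 to 52.7 in F0_MOR libraries (median 17.9), a log2 fold change of 0.86 ± 0.44 (adjusted p = 0.671). The same transcript had the smallest p for the interaction of morphine and timepoint, with a difference of the 2 log2 fold changes (nonabstinent minus abstinent) of 1.88 ± 0.65 that did not pass (adjusted p = 0.912). The interaction called 0 of 121 lincRNA transcripts (0% of all rows), with 2 (of 23 rows in all) at an unadjusted p under 0.05, and 0 by DESeq2.

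The second question was how the lincRNA fragments differed between the timepoints, F0_ABS-SAL vs F0_SAL and F0_ABS-MOR vs F0_MOR, which share no library. In the saline comparison 25 of the 121 tested lincRNA transcripts were differentially expressed (20.7%, beside 36.5% of all rows), 15 higher after abstinence (12.4%, beside 29.3%) and 10 lower (8.26%, beside 7.26%). In the morphine comparison 32 were differentially expressed (26.4%, beside 35.7%), 22 higher (18.2%, beside 28.8%) and 10 lower (8.26%, beside 6.85%). The share of lincRNAs called was thus below that of all rows in both comparisons in this fit, and the share called lower was close to it. That order depended on which rows were tested. DESeq2 called 19.9% of the 141 lincRNAs in the saline comparison, beside 23.3% of the 781 rows that received an adjusted p, and 24.8% in the morphine comparison, beside 22.6% of 1002. With no filter on low counts edgeR called 15.6% of the lincRNAs in both, beside 5.23% and 5.73% of all 3804 rows. Identical rows had been reduced to 1 among the lincRNAs but not among all rows. With that done for all rows, 21% of the lincRNAs were called beside 27.4% of 409 rows in the saline comparison. The morphine comparison then gave 25% beside 35%. The median log2 fold change was 0.20 for lincRNAs against 0.32 over all rows in the saline and 0.28 against 0.30 in the morphine comparison, so that the typical row was itself shifted upward at the abstinent timepoint under this scaling.

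The balance of higher and lower depended on the scaling. With size factors as in DESeq2 the calls were 12 higher and 17 lower in the saline and 15 and 20 in the morphine comparison (24% and 28.9% of the lincRNAs, beside 39.4% and 41.9% of all rows), and with the total count alone 8 and 15, and 11 and 16 (19% and 22.3%, beside 29.9% and 37.8%). No transcript called under TMM changed its direction under either. Leaving out 1 library also moved the TMM factors of the rest. The median of all rows in the saline comparison then lay between -0.04 (without F0_SAL W, 8 lincRNAs higher and 13 lower) and 0.45 (without F0_SAL V, 17 and 10), and in the morphine comparison between -0.13 (without F0_MOR U, 15 and 15) and 0.36 (without F0_MOR T, 26 and 10). Without F0_MOR G, M or U, which belong to neither saline group, the saline calls were 8 higher and 17 lower. In these fits 17.4 to 30.5% of the lincRNAs were called, beside 34 to 38.6% of all rows. Under TMM, both of these scalings, 1 TMM factor per library from the ncRNA and miRNA matrices joined, and DESeq2 itself, 18 transcripts were called in the saline comparison (8 higher, 10 lower) and 21 in the morphine comparison (11 higher, 10 lower). All 10 transcripts called lower under TMM are among them in either comparison. Calls under every setting were not counted over all rows, so that these numbers have no such share beside them. Without the deepest F0_SAL and the shallowest F0_MOR library the calls were 34 and 37 (29.1% and 31.6%, beside 39.3% and 36.5% of all rows). With snRNA rows removed from the matrix they were 26 and 34 of 129 (20.2% and 26.4%, beside 25% and 36.6%), so that the saline share then lay nearer to that of all rows.

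22 transcripts were called in both comparisons, all in the same direction, 14 higher and 8 lower. They were 88% of the saline and 68.8% of the morphine calls. Of all 482 rows 135 were called in both, again all in the same direction, and these were 76.7% of the saline and 78.5% of the morphine calls. 3 were called in the saline comparison alone and 10 in the morphine comparison alone, and the interaction called none of these. 16 of the 22 were called in both comparisons under every one of the 5 settings above, 8 of them higher and 8 lower. For all rows this was not counted. The leukocyte, epithelial, muscle and endothelial miRNA sums and the snRNA share moved with the timepoint in the same libraries, and their part in these differences was not tested.

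**Figure D3:**
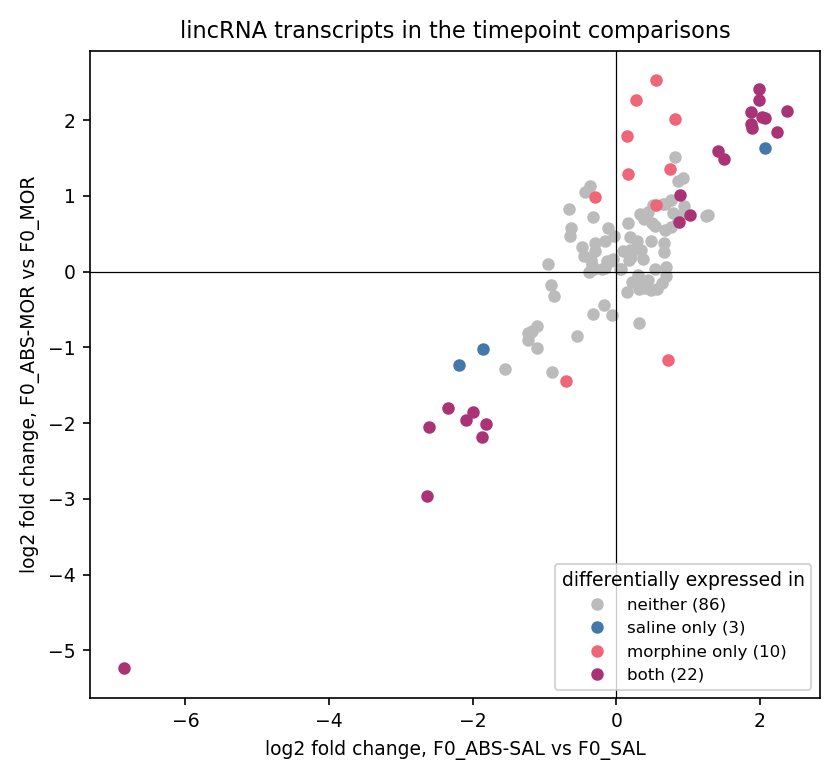
Log2 fold change of the 121 tested lincRNA transcripts in F0_ABS-SAL vs F0_SAL (horizontal axis) and F0_ABS-MOR vs F0_MOR (vertical axis), coloured by the comparison in which each was differentially expressed. The 22 transcripts called in both lie in the upper right (14) or lower left (8), and ENSRNOT00000077925.1 lies farthest out at the lower left.

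The transcripts that fell were mostly of few reads. The 12 called lower in either comparison averaged 6.77 to 128 normalized counts (median 10.6) and held 3.44% of all lincRNA counts. The 23 called higher averaged 5.86 to 2205 (median 22) and the 86 called in neither had a median of 14.7. Of the 54.2% of lincRNA counts on the 23, 41.6% lay on 3 transcripts whose calls were lost when F0_SAL library H, among others, was left out (ENSRNOT00000087930.1, ENSRNOT00000081056.1 and ENSRNOT00000078024.1), and the other 20 held 12.7%. Only named transcripts were followed singly in this way. Without library H 19 of the 25 saline and 24 of the 32 morphine calls remained, so that calls of further transcripts were lost too.

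ENSRNOT00000077925.1 (ENSRNOG00000052067.1) was the lincRNA that separated the timepoints most fully in the lower direction. It was found in all 14 nonabstinent libraries, with 2.79 to 32.1 normalized counts in F0_SAL (median 7.58) and 2.71 to 44.5 in F0_MOR libraries (median 10.8). It was at 0 in all 5 F0_ABS-SAL libraries and in 5 of the 6 F0_ABS-MOR libraries, the other holding 2 raw counts. The nonabstinent and abstinent groups did not overlap in either treatment, although the abstinent libraries were the deeper. Its 81 raw counts in F0_SAL libraries made it 27.3-fold lower in F0_ABS-SAL libraries, against an assumed floor of 3 counts over the group. The smallest count above 0 in the matrix is 2, so a 0 can hide an unrecorded read and this fold is no lower bound. In the morphine comparison 107 raw counts in F0_MOR against 2 in F0_ABS-MOR libraries gave a 51.5-fold lower level. Its exact 95% interval of 13.9 to 431 covers counting error only and takes each 0 as no read. edgeR called it lower in both (adjusted p = 6.56e-05 and 8.81e-05). This transcript met the count rule through nonabstinent libraries alone, its highest abstinent count being 2. Its choice was thus not independent of the timepoints compared. Its p-values and the separation of its groups may in part reflect that choice.

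ENSRNOT00000091531.1 (ENSRNOG00000053588.1) was the most-read of the transcripts that fell. F0_SAL libraries held 92.5 to 303 normalized counts (median 175) and F0_MOR libraries 28.6 to 325 (median 188). After abstinence the values were 25.8, 29.8, 34.3, 40.4 and 57.2 in F0_ABS-SAL libraries and 5.47 to 147 in F0_ABS-MOR libraries (median 44). All F0_ABS-SAL libraries lay below all F0_SAL libraries, and 2 F0_MOR libraries lay low, within the F0_ABS-MOR range. Between the saline groups the log2 fold change came to -2.35 ± 0.56 (SE, adjusted p = 0.00183), and between the morphine groups to -1.79 ± 0.51 (adjusted p = 0.00624). ENSRNOT00000088248.1 (ENSRNOG00000052271.1) fell by more but was more scattered. F0_SAL libraries held 34.3 to 228 normalized counts (median 96.5) and F0_MOR libraries 27.1 to 403 (median 129). Values of 2.58, 8.11, 20.2, 21.4 and 39.4 were found in F0_ABS-SAL libraries, and of 4.69 to 41.1 in F0_ABS-MOR libraries (median 15.2). The highest abstinent libraries reached the lowest nonabstinent ones in both treatments. Fitted over both timepoints, the log2 fold change was -2.63 ± 0.66 (SE) for saline (adjusted p = 0.00266) and -2.96 ± 0.62 for morphine (adjusted p = 0.000278).

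ENSRNOT00000091412.1 (ENSRNOG00000052735.1) fell in both treatments as well. F0_SAL libraries held 8.38 to 58.6 normalized counts (median 33.4) and F0_MOR libraries 15.6 to 52.9 (median 18.1). The F0_ABS-SAL libraries held 2.58, 2.68, 4.59, 5.62 and 10.5, and the F0_ABS-MOR libraries 2.73 to 8.21 (median 5.25). The morphine groups did not overlap, while 1 F0_SAL library lay within the F0_ABS-SAL range. The log2 fold change was -2.61 ± 0.51 (SE) between the saline groups (adjusted p = 0.00018) and -2.04 ± 0.47 between the morphine groups (adjusted p = 0.000885). For ENSRNOT00000083952.1 (ENSRNOG00000057904.1) the F0_SAL libraries held 7.80 to 29.2 normalized counts (median 16.6) and F0_MOR libraries 3.01 to 50.8 (median 17.6). After abstinence the values were 2.58, 3.12, 3.57, 4.38 and 4.59 in F0_ABS-SAL libraries and 1.82 to 10.3 in F0_ABS-MOR libraries (median 4.89). Here the saline groups did not overlap and the morphine groups did. Between the saline groups the log2 fold change came to -2.09 ± 0.60 (SE, adjusted p = 0.00872), and between the morphine groups to -1.96 ± 0.55 (adjusted p = 0.00568). The other 3 transcripts lower in both comparisons, ENSRNOT00000085111.1, ENSRNOT00000080854.1 and ENSRNOT00000089535.1, averaged 7.53 to 8.92 normalized counts, of which ENSRNOT00000085111.1 and ENSRNOT00000080854.1 had equal counts in 21 libraries. ENSRNOT00000085111.1 and ENSRNOT00000080854.1 also met the count rule through nonabstinent libraries alone, so their choice was not independent of the timepoints compared.

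**Figure D4:**
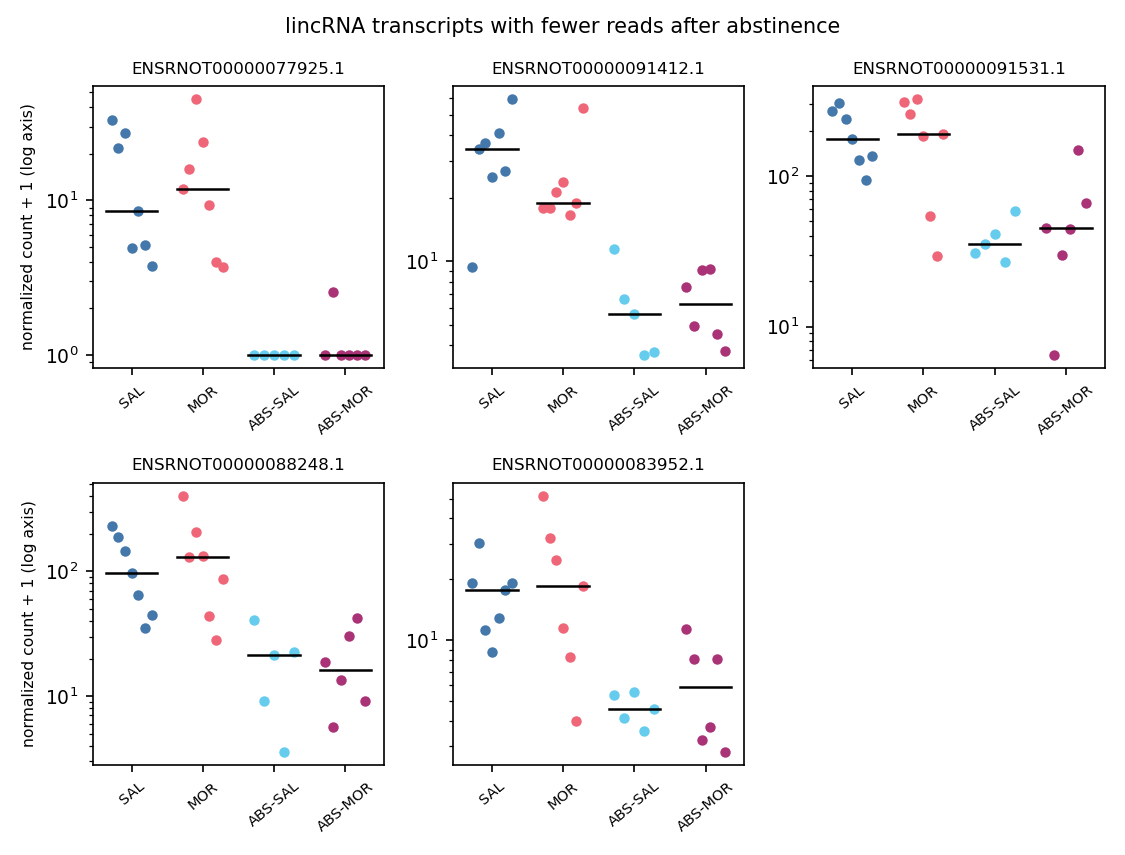
Normalized counts plus 1 (log axis) of the 5 lincRNA transcripts with the smallest p among those lower after abstinence, 1 point per library and the median of each group as a line. ENSRNOT00000077925.1 is at 0 in 10 of the 11 abstinent libraries, and the other 4 have lower medians in both abstinent groups.

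Among the transcripts that rose, ENSRNOT00000082026.1 (ENSRNOG00000055136.1) was the one whose groups did not overlap in either treatment. F0_SAL libraries held 29.2 to 76.9 normalized counts (median 46.6) and F0_MOR libraries 23.9 to 96.3 (median 49.8). Values of 106, 132, 218, 223 and 532 were found in F0_ABS-SAL libraries, and of 124 to 341 in F0_ABS-MOR libraries (median 161). The lowest abstinent library was above the highest nonabstinent one in saline and in morphine males. Fitted over both timepoints, the log2 fold change was 2.24 ± 0.40 (SE) for saline (adjusted p = 4.15e-05) and 1.85 ± 0.38 for morphine (adjusted p = 0.000246). ENSRNOT00000091928.1 (ENSRNOG00000060961.1) rose by a similar factor from fewer reads. F0_SAL libraries held 5.10 to 22.9 normalized counts (median 9.73) and F0_MOR libraries 3.08 to 14 (median 12.2). The F0_ABS-SAL libraries held 19.3, 34.8, 57.6, 66.8 and 73.5, and the F0_ABS-MOR libraries 32.5 to 75.2 (median 51.3). The morphine groups did not overlap, and the lowest F0_ABS-SAL library lay below the highest F0_SAL library. The log2 fold change was 1.99 ± 0.43 (SE) between the saline groups (adjusted p = 0.000527) and 2.27 ± 0.42 between the morphine groups (adjusted p = 6.11e-05).

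ENSRNOT00000082588.1 (ENSRNOG00000058425.1) showed the same order. F0_SAL libraries held 2.04 to 16.8 normalized counts (median 7.80) and F0_MOR libraries 3.98 to 9.65 (median 7.52). After abstinence the values were 8.25, 26.8, 30.6, 46.8 and 49 in F0_ABS-SAL libraries and 16.4 to 51.7 in F0_ABS-MOR libraries (median 25.6). The morphine groups were apart, and 1 F0_ABS-SAL library lay within the F0_SAL range. Between the saline groups the log2 fold change came to 2.02 ± 0.47 (SE, adjusted p = 0.00143), and between the morphine groups to 2.04 ± 0.46 (adjusted p = 0.000663). ENSRNOT00000082261.1, seventh by reads, rose, as did the rows correlated with it, ENSRNOT00000088103.1 and ENSRNOT00000079649.1. For ENSRNOT00000082261.1, F0_SAL libraries held 33.4 to 199.7 normalized counts (median 64.2) and F0_MOR libraries 47.9 to 154 (median 118). Values of 103, 214, 537, 589 and 781 were found in F0_ABS-SAL libraries, and of 204 to 869 in F0_ABS-MOR libraries (median 389). 1 F0_ABS-SAL library lay low, within the F0_SAL range, and the morphine groups did not overlap. Fitted over both timepoints, the log2 fold change was 2.37 ± 0.46 (SE) for saline (adjusted p = 0.000139) and 2.12 ± 0.44 for morphine (adjusted p = 0.000252). ENSRNOT00000088103.1 changed by 2.07 ± 0.48 and 2.02 ± 0.46 on the log2 scale (adjusted p = 0.00123 and 0.000764), and these 3 rows were not independent of each other (r of 0.95 to 0.99, above).

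**Figure D5:**
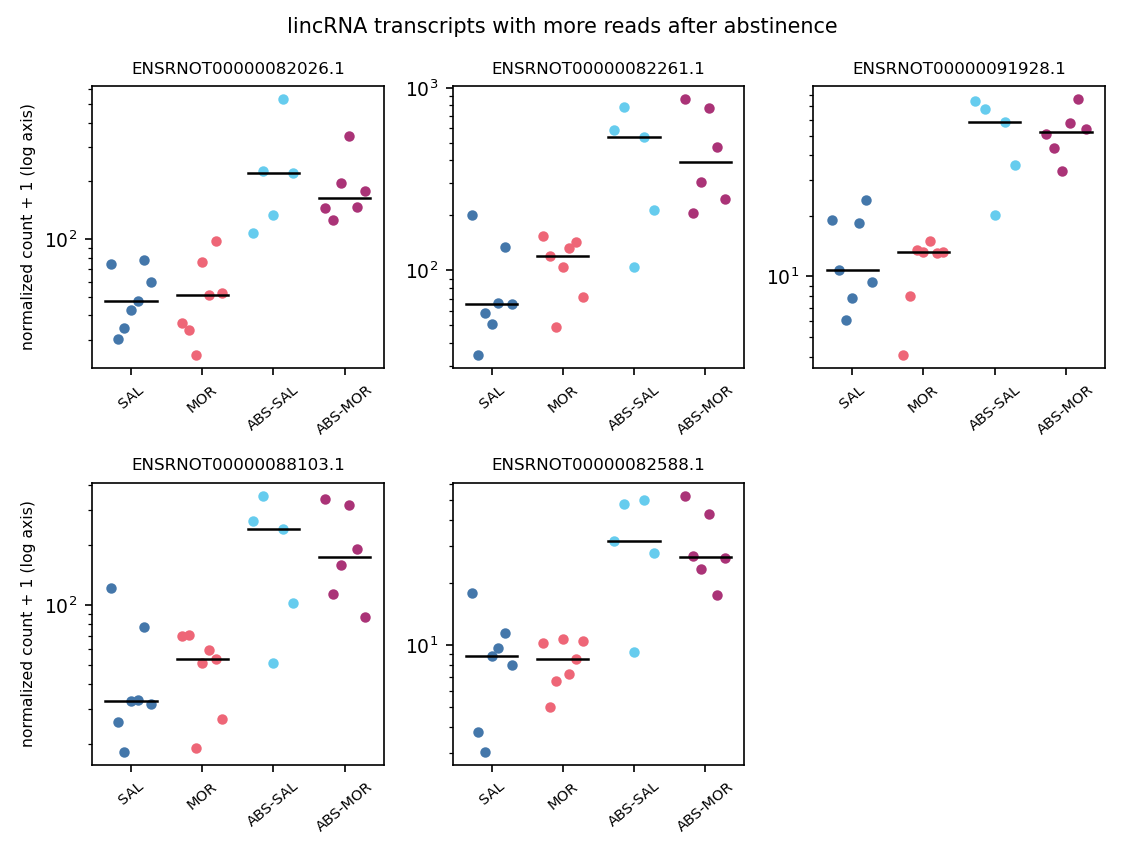
Normalized counts plus 1 (log axis) of the 5 lincRNA transcripts with the smallest p among those higher after abstinence, 1 point per library and the median of each group as a line. All abstinent F0_ABS-MOR libraries lie above all F0_MOR libraries for each transcript, and for ENSRNOT00000082026.1 this also holds in the saline groups.

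The differences of the most-read transcripts were small and depended on single libraries. ENSRNOT00000087930.1 changed by 0.55 ± 0.25 (log2, SE) between the saline groups (adjusted p = 0.0934), short of the fold change threshold, and rose by 0.89 ± 0.24 in the morphine comparison (adjusted p = 0.0037). ENSRNOT00000081056.1 rose by 0.87 ± 0.30 (adjusted p = 0.0223) and 0.66 ± 0.28 (adjusted p = 0.0771), and ENSRNOT00000078024.1 by 0.89 ± 0.29 (adjusted p = 0.0212) and 1.01 ± 0.28 (adjusted p = 0.00549). The median row itself lay 0.32 and 0.30 higher in these comparisons, so that relative to it the differences are smaller by that much. With the total count alone as scaling none of the 3 was called in either comparison. The morphine call of ENSRNOT00000087930.1 was lost without any 1 of 7 libraries (F0_SAL H or W, F0_MOR A, G, M or U, F0_ABS-MOR I), with log2 fold changes of 0.36 to 0.58. That of ENSRNOT00000078024.1 was lost without any 1 of the same 7 libraries (0.54 to 0.67) and its saline call without any 1 of 6 (F0_SAL H, O or W, F0_MOR G, M or U, 0.49 to 0.64). The saline call of ENSRNOT00000081056.1 was lost without any 1 of 7 libraries (those 6 and F0_ABS-SAL K, 0.30 to 0.66) and its morphine call without any 1 of 19 of the 25 (0.04 to 0.65). The other 6 of the 10 most-read transcripts, ENSRNOT00000082261.1 apart, were called in neither comparison.

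Groups did not overlap between timepoints for 5 of the tested lincRNA transcripts in the saline comparison (2 higher, beside 8.51% of all rows, and 3 lower, beside 0.83%, together beside 9.34%) and for 9 in the morphine comparison (7 higher, beside 18%, and 2 lower, beside 0.622%, together beside 18.7%). Both comparisons shared 2 of these, ENSRNOT00000082026.1 and ENSRNOT00000077925.1.

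The 20 transcripts that did not pass the filter on low counts received no test. They averaged 3.60 to 6.35 normalized counts and held 1.32% of all lincRNA counts. At the edge of the count rule 16 transcripts had a fifth-highest count of exactly 10. Of these ENSRNOT00000077838.1 (ENSRNOG00000052618.1) ranged over 0 to 6.98 normalized counts in F0_SAL and 1.56 to 7.39 in F0_ABS-MOR libraries, and ENSRNOT00000078497.1 (ENSRNOG00000057107.1) over 0 to 6.24 and 1.88 to 11.8. Just outside it 14 rows had a fifth-highest count of 9, among them ENSRNOT00000092896.2 with a highest count of 35 and 4 rows with 33, of which ENSRNOT00000092744.2 is the first by identifier.

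Beside the lincRNAs, the other classes of the matrix differed from each other in the share called between timepoints. Of 22 snoRNA rows, which guide the modification of rRNA, 77.3% were called in the saline and 81.8% in the morphine comparison, and of 61 snRNA rows 77% and 50.8%. Among 80 misc_RNA rows 50% and 51.2% were called, of 86 rRNA rows 38.4% and 31.4%, and of 28 miRNA rows 7.14% in both. The class most like the lincRNAs, processed_transcript rows (70 tested), which are also long transcripts seen as fragments, had 12.9% and 27.1% called against 20.7% and 26.4% of the lincRNA transcripts. The difference between the classes was not tested. In this edgeR fit no row of any of these classes was called in either treatment comparison, while other settings called the snoRNA and snRNA rows given above.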

How the data were processed

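Small RNA libraries of rat sperm RNA (NEBNext) were sequenced, and the authors trimmed, filtered and aligned the forward reads to the rat genome (rn6 per the labels) with sRNAbench, assigning reads to miRBase first and the remainder to Ensembl ncRNA. The authors deposited raw read counts per row for 25 libraries, labelled as biological replicates, which differ in depth. The smallest count above 0 in the matrix is 2. The counts were not normalized by the authors. The sources used here do not state whether a read that matches several rows was counted in each.

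From these counts, rows were filtered with filterByExpr over the 4 groups (482 of 3804 rows kept, 121 of 141 lincRNA transcripts), scaled by TMM and tested in 1 model of the 4 groups by the quasi-likelihood test of edgeR 4.0.16 (R 4.3.3), with Benjamini-Hochberg adjustment over all 482 rows. Calls required an adjusted p below 0.1 and a change of more than 0.58 on the log2 scale, the thresholds of the study, which used DESeq2. Standard errors are the log2 fold change divided by the square root of F. Log2 CPM used a prior count of 2. Alternatives were DESeq2 1.42.0, other scalings and filters, and each library left out. The scripts were tested on simulated data. Depth limits precision for transcripts of few counts. Intervals and floors (3 counts over a group) cover counting error only and take a 0 as no read. p-values set a difference between groups against the spread between these libraries within groups.

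Transcripts named are the 10 with the most reads, up to 5 called in each direction and comparison (or else the 1 of smallest p), those at the edge of the count rule, those sharing a gene or counts, the 3 most variable, the closest row of another biotype for the 5 most-read, and those separating the timepoints in both treatments. Ties at the edge were settled inside by the identifier and outside by the highest count. The transcripts and lists were chosen with earlier results of these data known. The RefSeq gene table used here holds 0 Ensembl identifiers, so the 3492 gene identifiers could not be looked up in it. The miRNA table was used for marker levels alone, as reads scaled to 1 common total (RPM).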

Additional observations from a re-analysis of the deposited data

Results flagged for a closer look

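In 108 group-wise checks of single libraries (depth, the share on lincRNAs, the share of lincRNA counts on the most-read transcript, and log2 CPM of the named transcripts), 5 libraries lay farther from the rest of their group than Dixon's 95% critical value allows, and chance would give about 5.4. The F0_SAL library O was the deepest of its group, at 22.6 on the log2 scale of ncRNA counts against 21.8 for the next. In F0_MOR library B the most-read lincRNA, ENSRNOT00000087930.1, took 38.6% of the lincRNA counts against 25% in the next library. F0_MOR library U was the highest of its group for ENSRNOT00000091412.1, at a log2 CPM of 3.92 against 2.78. In F0_ABS-MOR, library S was the lowest for ENSRNOT00000080552.1, at 5.44 against 6.09. F0_ABS-MOR library I was the highest for ENSRNOT00000077925.1, at -0.048 against -0.90, and was the only abstinent library with a count of that transcript.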

How the results depend on the processing

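The treatment comparisons and the interaction called 0 of the 141 lincRNA transcripts under all alternatives run; with no filter 1 lincRNA row outside the 141 and 1 rRNA row were called in F0_MOR vs F0_SAL. Of the timepoint counts (25 saline, 32 morphine), restricting the fit to rows of 10 counts in every library gave 9 and 8 of 25 lincRNAs left to test (beside 48.7% and 46.7% of 197 rows). That filter takes out transcripts with few counts in any library, whether they rose or fell. It left 18 of the 25 saline and 23 of the 32 morphine calls untested, and all lincRNA calls under it were higher. Fitting only the groups compared gave 22 of 80 (27.5%, beside 38.5% of 371 rows) and 21 of 85 (24.7%, beside 39% of 385 rows). Each other setting stayed within 1.5 times, and leaving out 1 library gave 20 to 30 and 26 to 36. Those were 16 to 24% and 21.3 to 30.5% of the lincRNAs tested, beside 27.7 to 37.8% and 30.2 to 40% of all rows. Of 29 named fold changes, 386 values under other settings reversed 0 times, 26 lost and 4 gained a call, and of 725 values with a library left out 0 reversed, 46 lost and 5 gained one. All losses among these named values were of ENSRNOT00000087930.1, ENSRNOT00000081056.1 and ENSRNOT00000078024.1, and all gains of the first. Most called transcripts in the named set had been picked by smallest p, so that other calls may be less stable. Of the 25 saline and 32 morphine calls, DESeq2 kept 20 and 24 and the total count alone kept 18 and 21. Without F0_MOR library G 18 and 23 were kept. The number of lincRNA transcripts was 234 with a minimum of 5 counts, 69 with 20, 75 when 13 libraries were required and 25 when all 25 were. The share on lincRNAs, without mitochondrial rRNA in the total, was 0.769% (F0_SAL), 0.783% (F0_MOR), 0.431% (F0_ABS-SAL) and 0.534% (F0_ABS-MOR), and with miRNA counts in the total 0.117%, 0.155% and 0.154% in the first 3. With 1 library left out it was 0.171 to 0.201%, 0.229 to 0.260%, 0.201 to 0.235% and 0.234 to 0.284%. No paired analysis was possible because the matrix columns carry letters and no replicate number. Removing snRNA rows, thinning, and leaving out both extreme libraries were chosen after seeing the data. Counts of a few reads per library limit the rarer transcripts.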
